A study of Mus musculus with 20 samples.

Results

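The genes described here are 6 ligands and 2 receptors of the tumour necrosis factor (TNF) family: Tnf, Tnfsf8 (CD30 ligand), Tnfsf9 (4-1BB ligand), Tnfsf12 (TWEAK), Tnfsf13 (APRIL), Tnfsf13b (BAFF), Tnfrsf1a (TNF receptor 1) and Tnfrsf1b (TNF receptor 2). They were taken by symbol from the deposited expression table, and all 8 listed symbols were present among its 13225 genes. No further filter on low values was applied to them. What filter made the deposited table is not known. Tnfsf8 and Tnfsf9, with few reads in air, may be in it only through their smoke reads. The cells were alveolar macrophages sorted from mouse lung by flow cytometry on CD45, Siglec-F and CD11c. The wild type (WT) mice were C57BL/6. The miR-155 knockout (KO) mice were of the strain B6.Cg-Mir155tm1.1Rsky/J, which lacks the microRNA in the whole animal. Mice breathed air or cigarette smoke for 4 weeks, which gave 4 groups (WT air, WT smoke, miR-155 KO air, miR-155 KO smoke) of 5 mice with 1 poly-A RNA library each. No source used here gives the ages of the mice.

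Ligands of the TNF family are membrane proteins that assemble as trimers, and several are cut from the cell surface to act at a distance. TNF is a classical product of activated macrophages. It binds TNF receptor 1, which carries a death domain and can signal to NF-kB or to cell death, and TNF receptor 2, which recruits TRAF adaptors. BAFF and APRIL are survival factors of B cells and plasma cells and share the receptors TACI and BCMA. TWEAK binds Fn14, and the ligands of CD30 and 4-1BB act on activated lymphocytes.

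The DNA before the start sites is printed for Tnf and Tnfsf13b, whose RNA fell with smoke in WT, and for Tnfsf8, whose RNA rose. A link between these bases and the RNA was not tested. Of the 8 genes, 6 had a promoter in the RefSeq table for GRCm38.p6. The lines give the bases, 5′ to 3′ on the strand of the gene, that lie before the start in RefSeq and outside the gene in GENCODE M21. These are chr17:35202008-35202257 (minus strand, 250 bases) for Tnf, chr8:10006217-10006466 (plus strand, 250 bases) for Tnfsf13b and chr4:63861348-63861534 (minus strand, 187 bases) for Tnfsf8. Capitals mark GAGGAA on either strand, a core bound by the macrophage factor PU.1, and TATAAA on the sense strand.
Tnf: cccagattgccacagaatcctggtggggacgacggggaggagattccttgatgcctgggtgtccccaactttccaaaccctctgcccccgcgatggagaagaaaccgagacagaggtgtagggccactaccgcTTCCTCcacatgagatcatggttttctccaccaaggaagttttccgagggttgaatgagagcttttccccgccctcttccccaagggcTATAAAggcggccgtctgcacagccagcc
Tnfsf13b: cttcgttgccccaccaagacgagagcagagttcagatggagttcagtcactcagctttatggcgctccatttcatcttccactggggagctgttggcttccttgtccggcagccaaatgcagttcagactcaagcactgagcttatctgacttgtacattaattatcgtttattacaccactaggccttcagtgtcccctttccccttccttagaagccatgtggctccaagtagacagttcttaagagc
Tnfsf8: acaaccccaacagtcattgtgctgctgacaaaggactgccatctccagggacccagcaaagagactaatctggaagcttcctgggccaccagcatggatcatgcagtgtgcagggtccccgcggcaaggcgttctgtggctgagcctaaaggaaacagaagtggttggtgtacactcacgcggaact

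Over the whole 300 base window of the table (250 before and 50 after the start), the Tnf promoter held TTCCTC 117 bases and TATAAA 29 bases before the start. A TATAAA on the sense strand occurred in 8.32% of the 32851 promoters of that length, and GAGGAA on either strand in 28.3%. TGANTCA, the AP-1 core, occurred in 7.81%. It was found as TGAGTCA in Tnfsf13, 133 bases before the start. In Tnfsf13b TGAGTCA lay 39 bases after the more upstream of its 2 listed starts and 127 bases before the other. Tnfrsf1b held GAGGAA 208 bases before its start. The 10-base NF-kB consensus, found on either strand in 8.46% of promoters, matched none of the 6 genes, and none of these motifs matched in Tnfsf8 or Tnfrsf1a. Such matches are strings of letters and show no binding.

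Libraries held 6885680 to 11952088 reads assigned to genes, and values are reads per 1000000 of these (CPM) or log2 CPM. In the miR-155 KO air group, 1451 to 1645 genes had no read in mice IIIb2, IIIb3 and IIIb4, where the remaining 17 libraries had 259 to 1224 such genes, and results that use this group are given without them where the call changes. Alveolar macrophage markers were all measured (12 of 12), and their summed level ran from 26080 to 32670 CPM. With smoke 3 of these markers rose and 5 fell in WT, and 4 rose and 5 fell in miR-155 KO (1 and 5 without IIIb2, IIIb3 and IIIb4). Over all genes 9.66% were called higher and 12.8% lower in WT, and 7.05% and 8.45% in miR-155 KO. Of the genes of the sorting antigens in WT, Siglecf fell from 520 ± 34.8 to 223 ± 51.0 CPM and Ptprc (CD45) from 1354 ± 40.6 to 845 ± 98.1, and Itgax (CD11c) was at 1930 ± 93.2 in air and 1890 ± 120 in smoke (mean ± SD, n = 5). Mir155hg, the host transcript of miR-155, had 2, 48, 25 and 8 reads over WT air, WT smoke, miR-155 KO air and miR-155 KO smoke. Without knowing which bases were deleted, the genotype cannot be checked from this transcript.

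With smoke the 6 ligands were called in WT and 3 of them in miR-155 KO, and neither receptor was called. In WT macrophages 6 of the 8 genes passed limma's test at an adjusted p under 0.05: Tnfsf8, Tnfsf9, Tnfsf12 and Tnfsf13 rose, and Tnf and Tnfsf13b fell. Over all genes tested, 9.66% were called higher and 12.8% lower in that comparison. Tnfsf8 and Tnfsf9 may be in the deposited table only through their smoke reads, so their calls cannot be set against these shares. In miR-155 KO macrophages 3 of the 8 passed: Tnfsf12 rose, and Tnf and Tnfsf13b fell, where 7.05% of all genes were called higher and 8.45% lower. The larger side of this background depended on scaling: quantile normalization gave 1536 genes higher and 1496 lower in WT and 1040 and 888 in miR-155 KO, where median centring gave 1026 and 957. The median log2 change of the 8 genes was 0.35 in WT and 0.12 in miR-155 KO. Because these medians include Tnfsf8 and Tnfsf9, they cannot be set against -0.02 and -0.01 over all genes. Without Tnfsf8 and Tnfsf9, changes ran from -1.30 (Tnfsf13b) to 0.82 (Tnfsf12) in WT. In miR-155 KO they ran from -1.96 (Tnf) to 0.45 (Tnfsf12). The 5 smoke and 5 air libraries did not overlap for 4 of the 8 genes in WT (18.1% of all genes) and for 1 of the 8 in miR-155 KO (9.88% of all genes). In WT these were Tnf and Tnfsf13b below and Tnfsf8 and Tnfsf12 above, and in miR-155 KO it was Tnf. The separation of Tnfsf8 cannot be set against the 18.1%, since its place in the table may rest on its smoke reads.

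Between genotypes 1 of the 8 genes passed a test. In air 0 of the 8 passed limma's test, 0 had an unadjusted p under 0.05, and no gene had groups that did not overlap. The background in air was 0.151% of genes called higher, 0.265% called lower and 1.83% not overlapping. In smoke Tnf was the 1 gene called, lower in miR-155 KO than in WT, and the 1 gene whose groups did not overlap. Of all genes, 0.892% were called higher there, 0.688% lower, and 4.24% did not overlap. The difference between the smoke responses of the genotypes passed limma's test for none of the 8 genes and for 0% of all genes. At an unadjusted p under 0.05 it held 2 of the 8 genes, Tnf and Tnfsf8, and 1302 of the 13225 genes. Tnfsf8 cannot be set against that count, as its place in the table may rest on its smoke reads. Other settings called 0 to 42 genes and none of the 8.

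**Figure D1:**
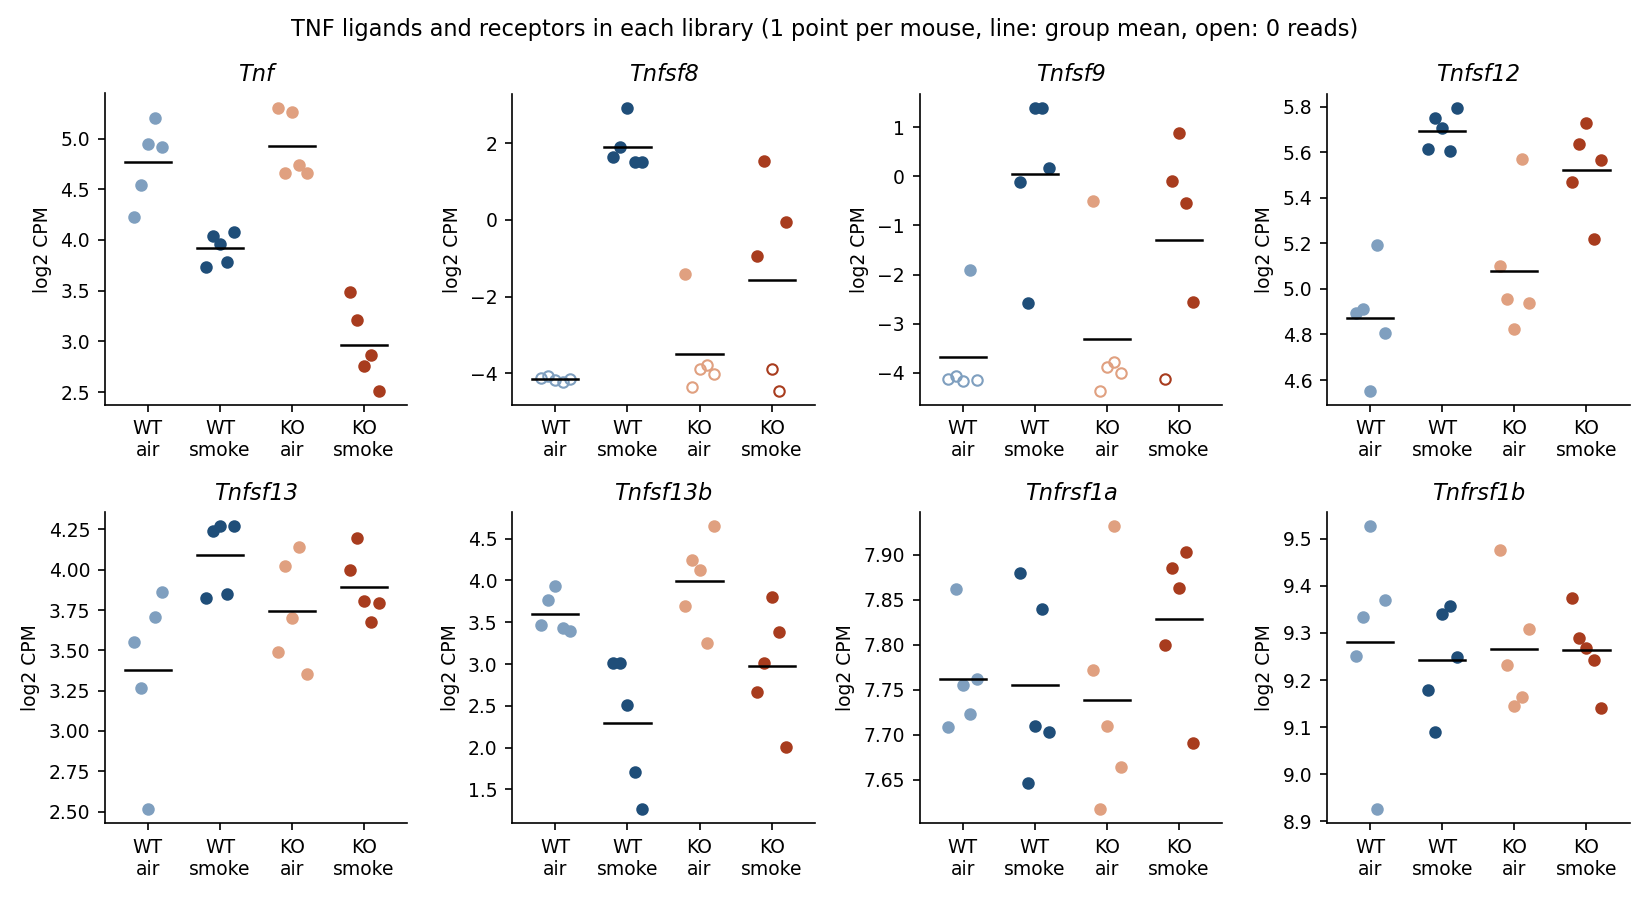
Log2 CPM of each gene in each library (vertical axis, with its own range per panel) in the 4 groups. Points are mice, horizontal lines are group means and open points are libraries with 0 reads. The 5 Tnf values of miR-155 KO smoke lie below those of the other groups, and Tnfsf8 has no read in any WT air library.

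Tnf fell with smoke in both genotypes and reached its lowest level in smoke-exposed miR-155 KO mice. The gene is a short locus at chr17:35199381-35202007 on the minus strand (GRCm38), between Lta and Ltb. In WT air, mice Ia3, Ia4, Ib1, Ib2 and Ib4 had 18.6, 23.2, 30.9, 36.7 and 30.1 CPM. In WT smoke, mice IIa1, IIa5, IIb1, IIb2 and IIb3 had 13.3, 16.4, 15.5, 13.7 and 16.9 CPM. Every WT smoke value was under every WT air value, and the WT smoke mice lay close together. In miR-155 KO air, mice IIIa5, IIIb1, IIIb2, IIIb3 and IIIb4 had 39.5, 25.3, 38.3, 26.7 and 25.3 CPM. In miR-155 KO smoke, mice IVa2, IVa4, IVa5, IVb2 and IVb4 had 11.1, 9.20, 6.68, 7.25 and 5.66 CPM. The highest of these lay under the lowest WT smoke mouse.

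The group means of Tnf were 27.9 ± 7.05 CPM in WT air, 15.2 ± 1.60 in WT smoke, 31.0 ± 7.23 in miR-155 KO air and 7.98 ± 2.18 in miR-155 KO smoke (SD, n = 5). With smoke the log2 change was -0.85 ± 0.21 in WT (SE; limma adjusted p = 0.0029) and -1.96 ± 0.21 in miR-155 KO (limma adjusted p = 4.67e-08). As folds, smoke left 0.557 of the air level in WT and 0.257 in miR-155 KO. In smoke, miR-155 KO differed from WT by -0.95 ± 0.21 on the log2 scale (limma adjusted p = 0.0113), whereas in air the difference was 0.16 ± 0.21 (limma adjusted p = 0.816). The responses of the genotypes differed by -1.12 ± 0.29 with an unadjusted limma p of 0.000631 and an adjusted p of 0.17, which did not pass. In sorted cells, fewer cells of a type and less RNA per cell cannot be told apart. The smoke difference between genotypes lost its call under voom weights (limma adjusted p = 0.0627, over all 30 settings 0.00548 to 0.0627), and both smoke calls held in all settings.

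The receptors of TNF had the highest levels per exon length of the 8 genes and did not pass a test. Tnfrsf1a lies at chr6:125349362-125362484 on the plus strand and Tnfrsf1b at chr4:145213463-145246870 on the minus strand. Tnfrsf1a ran from 196 to 244 CPM over all 20 libraries, and Tnfrsf1b from 486 to 737 CPM. The groups of both genes overlapped in each of the 4 comparisons. With smoke in WT, Tnfrsf1a changed by -0.01 on the log2 scale with a 95% interval of -0.14 to 0.13, and Tnfrsf1b by -0.04 with an interval of -0.21 to 0.13. In miR-155 KO the intervals were -0.05 to 0.23 for Tnfrsf1a and -0.17 to 0.17 for Tnfrsf1b. Each library held 1554 to 2681 reads of Tnfrsf1a and 3951 to 8511 of Tnfrsf1b.

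**Figure D2:**
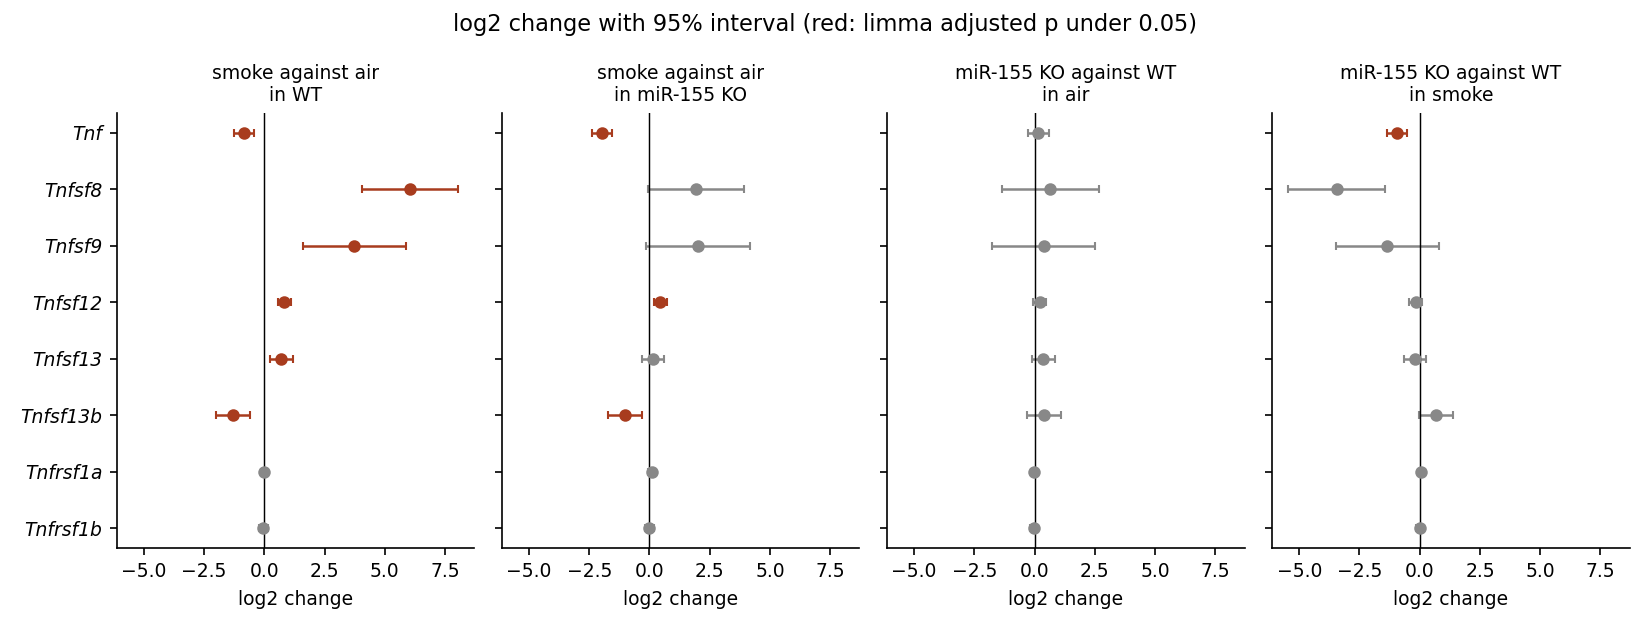
Log2 change (horizontal axis) of the 8 genes in the 4 comparisons between groups, with 95% limma intervals from 5 mice per group. Red marks an adjusted p under 0.05. Tnf is red in all comparisons but that of the genotypes in air, both receptors sit at 0 with short intervals, and Tnfsf8 and Tnfsf9 have the widest intervals.

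Tnfsf13b, which encodes BAFF, fell with smoke, and its decrease was called in both genotypes. It lies at chr8:10006467-10039072 on the plus strand. The WT air mice had 10.97, 13.5, 15.2, 10.8 and 10.4 CPM, and the WT smoke mice 7.99, 8.02, 5.62, 3.22 and 2.35 CPM, in the order of mice used for Tnf. No WT smoke mouse reached the lowest air value. The miR-155 KO air mice had 12.9, 18.9, 17.4, 9.44 and 25.0 CPM, and the miR-155 KO smoke mice 6.31, 7.996, 13.9, 10.4 and 3.96 CPM. Here mice IVa5 and IVb2 lay within the air range, and the groups overlapped.

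The log2 change of Tnfsf13b with smoke was -1.30 ± 0.35 in WT (SE, n = 5; limma adjusted p = 0.00629) and -1.02 ± 0.35 in miR-155 KO (limma adjusted p = 0.0431). The 2 responses differed by 0.28 with a 95% interval of -0.72 to 1.28. The genotypes differed by 0.40 in air and 0.67 in smoke, with limma adjusted p values of 0.702 and 0.407. The WT call held in all 30 settings. The miR-155 KO call was lost in 12 of 30: to 0.178 without IIIb2, IIIb3 and IIIb4, and also without any single mouse of Ia3, Ia4, Ib4, IIIb1, IIIb2, IIIb4, IVa2, IVa4 or IVb4 (limma adjusted p = 0.05 to 0.15; over all settings 0.014 to 0.178).

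Tnfsf12 and Tnfsf13 are neighbours in the same direction on chromosome 11, 466 bases apart, at chr11:69686250-69695849 and chr11:69682846-69685784 on the minus strand. TWEAK, the product of Tnfsf12, is a cytokine of tissue repair and inflammation, and Tnfsf12 had the highest level per exon length of the 6 ligands. The WT air mice had 29.7, 30.0, 23.4, 36.6 and 28.0 CPM of Tnfsf12, and the WT smoke mice 48.9, 53.7, 52.2, 48.7 and 55.5 CPM. All WT smoke mice lay above all WT air mice. The miR-155 KO air mice had 34.2, 31.0, 28.3, 47.5 and 30.6 CPM, and the miR-155 KO smoke mice 44.3, 49.7, 52.9, 37.2 and 47.3 CPM. The miR-155 KO groups overlapped, with air mouse IIIb3 high and smoke mouse IVb2 low. The log2 change of Tnfsf12 was 0.82 ± 0.13 in WT (SE, n = 5; limma adjusted p = 3.25e-05) and 0.45 ± 0.13 in miR-155 KO (limma adjusted p = 0.0206). The difference of the responses was -0.38 ± 0.19, with an unadjusted p of 0.0562 and an adjusted p of 0.527 in limma. The miR-155 KO call was lost in the fit of the compared groups only (limma adjusted p = 0.0601) and without IIIb2, IVa4 or IVa5 (0.0585, 0.0548 and 0.0599; over all settings 0.00171 to 0.0601).

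Tnfsf13, which encodes APRIL, rose with smoke in WT. The WT air mice had 11.7, 9.58, 5.66, 13.0 and 14.5 CPM, and the WT smoke mice 14.1, 18.8, 19.2, 14.4 and 19.2 CPM. WT air mouse Ib1 was lowest, and 3 of the 5 smoke mice lay above all air mice. The miR-155 KO air mice had 11.2, 16.2, 12.9, 17.6 and 10.2 CPM, and the miR-155 KO smoke mice 15.95, 18.3, 13.9, 12.8 and 13.8 CPM. Of the latter, 1 mouse, IVa4, lay above all air mice. The log2 change was 0.71 ± 0.23 in WT (SE, n = 5; limma adjusted p = 0.0235) and 0.15 ± 0.23 in miR-155 KO (limma adjusted p = 0.72). The difference of the responses was -0.56 with a 95% interval of -1.22 to 0.10. The WT call was lost without Ib1, IIb1 or IIb3 (limma adjusted p = 0.101, 0.0608 and 0.0561; over all settings 0.0128 to 0.101).

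A read-through gene, Tnfsfm13, and the antisense gene Tnfsf13os overlap both Tnfsf12 and Tnfsf13, and no source used here says whether the counting used strand, so reads of these genes could be split. Tnfsfm13 had 515 reads over WT air and 759 over WT smoke, a log2 change of 0.46 ± 0.21 (SE, n = 5; limma adjusted p = 0.117). Tnfsf13os had 206 and 284 reads, a log2 change of 0.29 ± 0.38 (limma adjusted p = 0.663). Over the 20 libraries the log2 CPM of Tnfsf12 and Tnfsf13 had a Pearson r of 0.756, or 0.596 after subtracting group means, the highest of the 28 pairs of the 8 genes in both cases. Before subtraction the lead was slight. Tnfsf8 and Tnfsf12, on different chromosomes, had 0.7545, or 0.201 after subtraction.

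Tnfsf8 and Tnfsf9 had 0 to 8 reads in each air mouse and were read in all 5 WT smoke mice. Tnfsf8 lies at chr4:63831308-63861347 on the minus strand. It had 0 reads in each WT air mouse and 35, 33, 67, 26 and 26 reads in the WT smoke mice. The summed 187 reads against 0 put WT smoke at least 57.7-fold higher than WT air, taking 3 reads over the group as the limit that a count of 0 allows. The filter behind the deposited table is not known, so Tnfsf8 may be present only through its WT smoke reads. That limits the meaning of this fold and of its WT call. In miR-155 KO air mouse IIIa5 had 4 reads and the others 0. In miR-155 KO smoke, mice IVa2, IVa4, IVa5, IVb2 and IVb4 had 4, 26, 0, 0 and 8 reads. Mouse IVa4 alone came up to the lowest WT smoke mice, and 2 of the 5 mice had no read.

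The fitted log2 change of Tnfsf8 in WT was 6.04 ± 0.97 (SE, n = 5; limma adjusted p = 2.96e-05), whose size depends on the 0.5 reads added to each count. In miR-155 KO it was 1.93 ± 0.97 and did not pass (limma adjusted p = 0.194), with 38 reads in smoke against 4 in air. In smoke, miR-155 KO held 0.217 times the Tnfsf8 level of WT when reads were summed (95% counting interval 0.149 to 0.309), and the limma test over mice gave an adjusted p of 0.0668. That comparison passed in 5 of 29 settings, among them without mouse IVa4 (limma adjusted p = 0.027; over the 29 settings 0.00367 to 0.209). The difference of the responses was -4.11 ± 1.38, with an unadjusted p of 0.00582 and an adjusted p of 0.306 in limma.

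Tnfsf9 lies at chr17:57105325-57107757 on the plus strand. The WT air mice had 2 reads in Ib2 and 0 in the others, and the WT smoke mice had 10, 1, 23, 24 and 10 reads. WT smoke mouse IIa5 stood within the air range. The ratio of summed reads was 31.5 (95% counting interval 8.39 to 265), and limma called the change (log2 3.74 ± 1.05, adjusted p = 0.00944). Like Tnfsf8, Tnfsf9 may be in the deposited table only through its smoke reads. That limits the meaning of this ratio and of the WT call. In miR-155 KO air mouse IIIa5 had 8 reads and the others 0, and the miR-155 KO smoke mice had 0, 8, 13, 7 and 1 reads. The log2 change there was 2.02 ± 1.05 and did not pass (limma adjusted p = 0.209). The antisense transcript Gm11110 overlaps Tnfsf9 and had 0 reads over WT air and 29 over WT smoke (limma adjusted p = 0.101), so reads at this locus are uncertain between the 2.

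Markers of other cells also changed with smoke, in both directions. The shares of all genes called with smoke were 9.66% higher and 12.8% lower in WT. In miR-155 KO they were 7.05% and 8.45%. Of 11 monocyte and interstitial macrophage markers 9 were measured. Among them, the complement chains C1qa, C1qb and C1qc rose and Cd14 fell with smoke in WT, and Ccr2, Apoe and Cd14 fell in miR-155 KO (Ccr2 not without IIIb2, IIIb3 and IIIb4 together, limma adjusted p = 0.112, or without IVa5). The summed CPM of the list was 152 to 175 (WT air), 108 to 310 (WT smoke), 145 to 208 (miR-155 KO air) and 95.7 to 117 (miR-155 KO smoke). C1qa and Ly6c2 were at 0 in all WT air mice, and Folr2 and Lyve1 were not analysed here. WT smoke mouse IIb1, highest in Tnfsf8, was also highest of its group in C1qa (42.9 CPM), Il7r (39.3 CPM) and Ccr2 (14.4 CPM). Within miR-155 KO smoke, mouse IVa4, highest in Tnfsf8, was highest in C1qa (4.27 CPM) and C1qb (7.45 CPM). It was close behind IVa2 in C1qc (2.52 against 2.87 CPM) and Il7r (6.02 against 6.08 CPM). Mice IVa5 and IVb2, which had no Tnfsf8 read, lay below the other mice of the group in each of these markers. Ccr2 and Cd4 did not follow this order. Ccr2 was highest in IVb2 (6.42 CPM) and at 3.07 CPM in IVa4, and Cd4 had reads in IVb4 alone. Mouse IVa5, with the most Tnfsf9 reads of that group, had 0.682 CPM of C1qa and 2.73 CPM of Il7r, each above IVb2 only.

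Of 8 T and NK cell markers, Cd4 and Il7r were measured. Both rose with smoke in WT (Cd4 not without Ia3, Ia4, Ib1, IIb1, IIb2 or IIb3) and Il7r in miR-155 KO, a call lost without IIIb2, IIIb3 and IIIb4 (limma adjusted p = 0.169). Their summed CPM was 0.571 to 1.71 (WT air), 7.47 to 41.2 (WT smoke), 0 to 1.26 (miR-155 KO air) and 0.642 to 6.08 (miR-155 KO smoke). Cd3d, Cd3e and Cd3g were not analysed here. Of 8 neutrophil markers 5 were measured, and in each genotype 3 rose and 1, Csf3r, fell (Cxcr2 not in WT without Ib2 or IIb1). Their summed CPM was 90.3 to 129 (WT air), 159 to 357 (WT smoke), 86.1 to 134 (miR-155 KO air) and 139 to 314 (miR-155 KO smoke), with S100a9 at 0 in both air groups. Of 6 dendritic cell markers 4 were measured, and Ccr7 rose in WT (not without Ia4) and Flt3 in miR-155 KO. The Flt3 call was lost without IIIb2, IIIb3 and IIIb4 (limma adjusted p = 0.325), without IVa5 and under quantile normalization. Of 5 B cell markers, Ighm was measured and not called. Of 6 epithelial markers 5 were measured, of which Cdh1 rose and Epcam fell in both genotypes and Foxj1 rose in WT. The Foxj1 call was lost without Ia4, Ib2, Ib4 or any 1 WT smoke mouse, and the miR-155 KO call of Cdh1 without IIIb2, IIIb3 and IIIb4 (limma adjusted p = 0.0596). Between genotypes in smoke, Apoe and the alveolar macrophage marker Car4 were lower in miR-155 KO (limma adjusted p = 0.00754 and 0.042). These calls held in 28 and 17 of 30 settings. The median log2 difference of the monocyte and interstitial macrophage list there was -1.19, beside -0.02 over all genes. In air S100a8 was lower in miR-155 KO (limma adjusted p = 0.0347), in 16 of 30 settings and not without IIIb2, IIIb3 and IIIb4 (0.378). The part of these cells in the levels of the 8 genes was not tested.

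**Figure D3:**
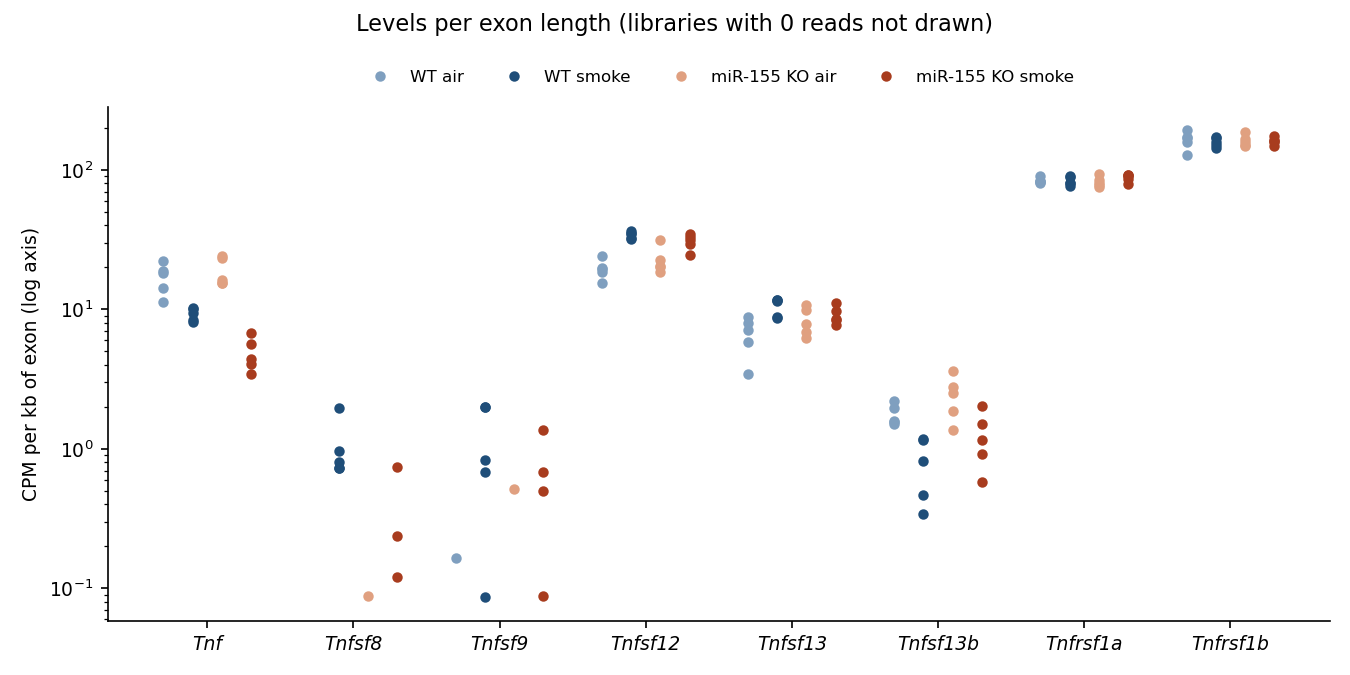
CPM divided by the length of a gene's exons in kb (vertical log axis) for each library with at least 1 read, by gene and group. The receptors lie highest, Tnfsf12, Tnf and Tnfsf13 in the middle, and Tnfsf13b, Tnfsf8 and Tnfsf9 lowest.

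Levels of different genes were compared as CPM per kb of exon, using the merged exons of GENCODE M21. Tnfrsf1b had 164 ± 24.1 CPM per kb in WT air (SD, n = 5) and Tnfrsf1a 83.8 ± 3.56, and the ranges of these receptors did not overlap each other or any ligand. Tnfsf12 followed with 19.5 ± 3.12 and Tnf with 17.0 ± 4.30, which did not differ beyond their spread. Tnfsf13 had 6.64 ± 2.09 and Tnfsf13b 1.77 ± 0.305 CPM per kb. In WT smoke Tnfsf12 had 34.2 ± 1.97, Tnfsf13 10.5 ± 1.63 and Tnf 9.25 ± 0.98 CPM per kb, the last pair within their spread. The lowest neighbours in WT smoke, Tnfsf9, Tnfsf8 and Tnfsf13b at 1.12 ± 0.85, 1.04 ± 0.53 and 0.79 ± 0.38, also overlapped. In miR-155 KO air Tnfsf12 had 22.7 ± 5.06 and Tnf 18.9 ± 4.41 CPM per kb and overlapped, followed by Tnfsf13 at 8.32 ± 1.95 and Tnfsf13b at 2.44 ± 0.87. In miR-155 KO smoke Tnfsf12 had 30.5 ± 3.96, Tnfsf13 9.13 ± 1.34, Tnf 4.87 ± 1.33 and Tnfsf13b 1.24 ± 0.56 CPM per kb. Each miR-155 KO smoke library held less Tnf (3.45 to 6.79) than any held of Tnfsf13 (7.79 to 11.2).

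The measured receptors of the other 5 ligands had group means between 0.234 and 23.8 CPM. Of 7 listed receptors 4 were measured: Tnfrsf8 (CD30), Tnfrsf9 (4-1BB), Tnfrsf12a (Fn14) and Tnfrsf13b (TACI). For this list and those below, the shares of all genes called with smoke were 9.66% higher and 12.8% lower in WT. In miR-155 KO they were 7.05% and 8.45%. Tnfrsf13b rose with smoke in WT from 14.3 ± 6.05 to 23.0 ± 3.06 CPM (SD, n = 5; log2 change 0.84 ± 0.27, limma adjusted p = 0.0247). In miR-155 KO it rose from 13.4 ± 2.85 to 23.8 ± 4.09 CPM (0.83 ± 0.27, limma adjusted p = 0.0376). These calls held in 27 and in 21 of 30 settings. The WT call was lost without a mean trend and without Ib1 or IIb1 (limma adjusted p up to 0.0951). The miR-155 KO call was lost without a mean trend, with the letter of the mouse code as covariate, without IIIb2, IIIb3 and IIIb4 together and without any single mouse of IIIb3, IIIb4, IVa4, IVa5, IVb2 or IVb4 (limma adjusted p up to 0.326). Tnfrsf9 had 11 reads over WT air and 96 over WT smoke, which did not pass. None of the 4 passed between genotypes.

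Of 12 other ligands of the family, 3 were measured. Tnfsf14 (LIGHT) rose with smoke by 2.58 ± 0.93 in WT and 2.76 ± 0.93 in miR-155 KO on the log2 scale (limma adjusted p = 0.0442 and 0.041), each call held in 17 of 29 settings. It had 30, 145, 39 and 124 reads over WT air, WT smoke, miR-155 KO air and miR-155 KO smoke. The WT call was lost without any single mouse of Ia4, Ib4, IIa1, IIb1, IIb2, IIb3, IVa2, IVa4, IVb2 or IVb4, and the miR-155 KO call without IIIb2, IIIb4 or any 1 miR-155 KO smoke mouse and without IIIb2, IIIb3 and IIIb4 together (limma adjusted p = 0.562). Tnfsf10 (TRAIL, an inducer of cell death) fell by 1.21 on the log2 scale in WT, with an SE of 0.41 (limma adjusted p = 0.0321), and this call held in 23 of 30 settings, failing without Ia3, Ia4, Ib1, Ib4, IIa5, IIb2 or IIb3. In miR-155 KO Tnfsf10 changed by -0.22 ± 0.41 (limma adjusted p = 0.789). Of 21 other receptors 14 were measured, and the same 3 were called in both genotypes. Tnfrsf26 rose by 0.70 ± 0.12 in WT and 0.73 ± 0.12 in miR-155 KO (limma adjusted p = 0.000104 and 9.51e-05), in 30 of 30 settings each. Tnfrsf23, a decoy receptor for TRAIL in mice, rose by 0.42 and 0.36, and Tnfrsf21 (DR6) fell by 0.25 and 0.22 on the log2 scale. The miR-155 KO calls of Tnfrsf23 and Tnfrsf21 held in 16 and 22 of 30 settings. That of Tnfrsf23 failed without Ia4, IIb1, IIb2, IIIb1, IIIb2, IIIb3, IVa2, IVa4, IVb2 or IVb4 and without IIIb2, IIIb3 and IIIb4 together (limma adjusted p = 0.221), and in WT without Ia3, Ib2 or IIa1. That of Tnfrsf21 failed without IIIb1, IIIb2, IVa5 or IVb4, and Tnfrsf21 lost its call in both genotypes under quantile normalization.

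Genes of the complexes that form at TNF receptors changed in both directions. Of 28 listed genes, all measured, 4 rose and 8 fell with smoke in WT, with a median log2 change of -0.14 beside -0.02 over all genes. In miR-155 KO 1 rose and 5 fell, with a median of -0.10. Without IIIb2, IIIb3 and IIIb4 the miR-155 KO counts were 2 and 3, with the calls of Casp8 and Rbck1 lost. Quantile normalization left 5 lower in WT and 3 in miR-155 KO, and over the settings 5 to 9 and 3 to 8 were called lower. Ripk3, the kinase of necroptosis, rose from 12.1 ± 2.19 to 25.2 ± 2.52 CPM in WT (SD, n = 5; log2 change 1.06 ± 0.18, limma adjusted p = 4.46e-05). In miR-155 KO its change was 0.43 ± 0.18 (limma adjusted p = 0.101). Mlkl, the pore-forming target of that kinase, rose by 1.13 ± 0.21 in WT and 0.87 ± 0.21 in miR-155 KO (limma adjusted p = 0.000148 and 0.0036). Tnfaip3, which encodes the inhibitor A20 and is itself a target of NF-kB, fell from 103 ± 34.4 to 57.1 ± 4.87 CPM in WT and from 94.5 ± 22.5 to 48.2 ± 9.79 CPM in miR-155 KO. Its log2 changes were -0.78 ± 0.18 and -0.97 ± 0.18 (limma adjusted p = 0.00148 and 0.000208). Ikbkg, the NEMO subunit of the IKK complex, fell by 0.55 in WT on the log2 scale, and its change of -0.21 in miR-155 KO did not pass. The calls of Ripk3, Mlkl, Tnfaip3 and Ikbkg named here held in all 30 settings.

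Of 10 subunits and inhibitors of NF-kB, all measured, 4 fell with smoke in WT (Nfkb1, Nfkb2, Relb and Nfkbia) and 5 in miR-155 KO (Nfkb1, Nfkb2, Rela, Nfkbia and Nfkbie), and none rose. Nfkb1, the gene of p105 and p50, fell from 231 ± 14.2 to 159 ± 12.5 CPM in WT (SD, n = 5; log2 change -0.54 ± 0.08, limma adjusted p = 1.88e-05). Its change in miR-155 KO was -0.38 ± 0.08 (limma adjusted p = 0.00218). Nfkbia, the inhibitor IkBa, fell by 0.50 and 0.67 on the log2 scale. The medians of the list were -0.29 and -0.37. The Nfkb2 call held in 22 of 30 settings in WT and 19 in miR-155 KO, and that of Relb in WT in 23. Without IIIb2, IIIb3 and IIIb4, 3 of the 10 were called in miR-155 KO, and Rela and Nfkb2 lost their calls (limma adjusted p = 0.188 and 0.103; over all settings 3 to 5 were called, and 2 to 5 in WT).

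Of 9 genes that process or shed TNF ligands and receptors 8 were measured. In WT 5 fell with smoke and 1 rose. Adam17, the enzyme that releases TNF from the membrane, fell from 297 ± 22.7 to 234 ± 19.8 CPM (SD, n = 5; log2 change -0.34 ± 0.09, limma adjusted p = 0.00455). Adam10 and Frmd8, a partner that stabilises the ADAM17 complex, fell by 0.34 and 0.28 on the log2 scale, and Furin, a convertase that cleaves BAFF, APRIL and TWEAK, rose by 0.41. In miR-155 KO 1 of the 8, Frmd8, was called, with a change of -0.23, in 18 of 30 settings and not without IIIb2, IIIb3 and IIIb4 together or without IIIb1, IIIb3, IIIb4, IVa2 or IVb4.

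Of 12 genes that control the stability or translation of Tnf mRNA, all measured, 7 fell with smoke in WT and none rose. In miR-155 KO 1 fell. Of all genes 12.8% were called lower in WT and 8.45% in miR-155 KO. Zfp36, which encodes tristetraprolin, a protein that destabilises Tnf mRNA, fell by 0.33 in WT and 0.62 in miR-155 KO on the log2 scale (limma adjusted p = 0.0441 and 0.000427). The WT call of Zfp36 held in 18 of 30 settings and its miR-155 KO call in 30 of 30. The WT call failed without Ia3, Ia4, Ib1, Ib4, IIa5, IIb2, IVa4 or IVb4. Rc3h1 and Rc3h2, which encode the RNA-binding proteins Roquin 1 and 2, fell by 0.56 and 0.53 in WT (the latter not without Ia4, Ib1, IIb1, IIb2 or IIb3), and Tia1, a repressor of Tnf translation, by 0.47. The WT count fell to 3 under quantile normalization and ran from 2 to 8 over the settings. None of the genes in these pathway lists passed in a comparison between genotypes.

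**Figure D4:**
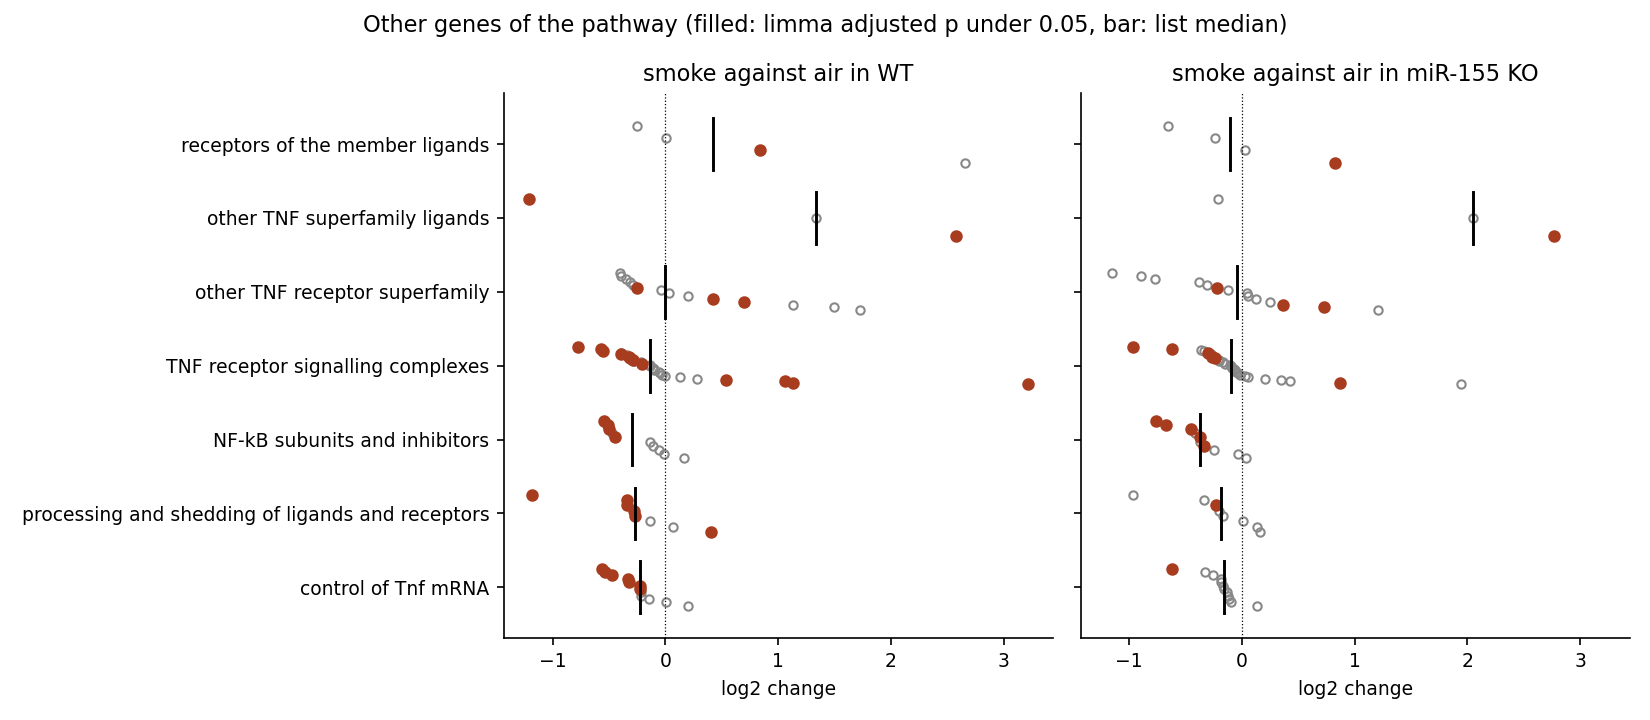
Log2 change with smoke (horizontal axis) of each measured gene of the 7 pathway lists in WT (left) and miR-155 KO (right). Filled points passed limma's test at an adjusted p under 0.05, open points did not, and bars are list medians. Called genes of the NF-kB and Tnf mRNA lists all lie below 0.

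The genes most like each of the 8 were ranked by Pearson r of log2 CPM over the 20 libraries, among those whose mean log2 CPM was 3 or more. These values describe libraries that share groups and are given without a test. Tnf was most like Tnfaip3 (r = 0.882), Irf5 (0.882) and Cxcl3 (0.878). After group means were subtracted these became 0.693, 0.069 and 0.635, so the likeness to Irf5 lay between the groups and not within them. Tnfsf8 was most like Prdx6 (0.911), Mmp12 (0.907) and Glmp (0.886), and Tnfsf9 like Shmt2 (0.898), Aaas (0.852) and Ppib (0.847). Within groups these were 0.666, 0.672 and 0.538 for Tnfsf8 and 0.773, 0.651 and 0.702 for Tnfsf9. In libraries without a read of these ligands the log2 CPM is set by depth, so r partly reflects read against no read. Tnfsf12 was most like Pgam1 (0.912), Smurf1 (0.91) and Ceacam1 (0.908), and Tnfsf13 like Haus4 (0.829), Cd300lf (0.814) and Cryl1 (0.797). Tnfsf13b was most like Rasgef1b (0.904), Klf13 (0.898) and Itga4 (0.893), which stayed at 0.76, 0.787 and 0.806 within groups. The receptors had weaker best matches: P2rx7, Mlh3 and Phc1 for Tnfrsf1a (0.689, 0.667 and 0.666) and Eri3, Slc29a1 and Hsp90ab1 for Tnfrsf1b (0.718, 0.714 and 0.668).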

How the data were processed

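Poly-A RNA of sorted alveolar macrophages from 20 mice was sequenced, 5 mice in each of 4 groups. Libraries were made with a TruSeq mRNA kit, per the labels' protocols. The submitters' processing notes name STAR 2.6.0c, GRCm38.p6 and limma. No source used here gives the counting tool, its annotation, its use of strand or its filter. The authors deposited log2 CPM values, which follow the voom formula (0.5 reads added to each count, 1 to the total). With it every value gave back whole reads within 0.001, at 6885680 to 11952088 reads per library.

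Groups came from the labels. limma 3.58.1 (R 4.3.3) was fitted to the 13225 genes, with 1 mean for each group and a mean trend in the prior, with 5 contrasts. P values were 2-sided and adjusted by Benjamini-Hochberg over all genes of a contrast. The fit was tested on simulated data first. Only genes above a floor of mean level were changed there, so the simulation does not cover the calls of Tnfsf8 and Tnfsf9. Ratios of reads have exact binomial 95% intervals, which cover counting error only. Every gene of the set is described in every group. Up to 4 called genes with the smallest p are named from each pathway list, and further names among counts of 5 or fewer were added after their values were seen. The genes, lists and tests were chosen with earlier results of these data known. Alternatives were other priors, filters, scalings and weights, the compared groups alone, the letter of the mouse code as a covariate, and libraries left out. Correlations and plots used Python 3.11.15. The result of 1 gene of the marker lists is not reported here.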

Additional observations from a re-analysis of the deposited data

Results flagged for a closer look

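In 4 of the 32 combinations of gene and group, 1 mouse lay far from the other 4 of its group. Chance gives such a gap in about 1 in 20 groups of measured values, a rate that does not hold for the 3 cases in which the other 4 mice had no read. Tnfsf8 was high in WT smoke mouse IIb1, with a log2 CPM of 2.92. Tnfsf8 was also high in miR-155 KO air mouse IIIa5, with a log2 CPM of -1.41, where the other 4 mice had no read. Tnfsf9 was high in WT air mouse Ib2, at -1.91, and in miR-155 KO air mouse IIIa5, at -0.49, each the 1 mouse of its group with a read. Of the markers of other cells, mouse IIIa5 was first of its group in Il7r (1.17 CPM) and in Cd4, with 1 read. It was second in C1qa and C1qb (0.418 and 0.335 CPM) and last in Ccr2 (6.61 CPM).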

How the results depend on the processing

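No paired analysis was possible because each mouse code occurs once, so no code links mice across groups. All settings were planned, 30 for each comparison between groups and 29 for the difference of the smoke responses, which has no fit of the compared groups alone. With genes of a mean log2 CPM of at least 1, Tnfsf8 and Tnfsf9 gave no value. In WT the smoke calls of Tnf, Tnfsf12 and Tnfsf13b held in every setting, and in miR-155 KO that of Tnf. The WT calls of Tnfsf8 and Tnfsf9 held in every setting that gave a value. All settings start from the same deposited table, so they cannot test what its unknown filter did to these calls. Fits of the compared groups only called 1 of the 8 genes with smoke in miR-155 KO, and 2 between genotypes in smoke, as did log2(CPM + 1) and quantile normalization; leaving out 1 mouse gave 1 (without IIIb2 or IVa4) to 3 and 1 to 2 (without IVa4). Changes near 0 turned sign. Quantile normalization gave 0.060 for Tnfrsf1a with smoke in WT and 0.051 for Tnfrsf1b in miR-155 KO, where median centring gave 0.022. Without IIIb2, IIIb3 and IIIb4, Tnfrsf1b changed by 0.073 between genotypes in air and by -0.053 between the responses. Leaving out 1 mouse, Tnfrsf1a ran from -0.038 to 0.021 with smoke in WT and from -0.071 to 0.0072 between genotypes in air. Tnfrsf1b ran from -0.13 to 0.023 with smoke in WT, from -0.033 to 0.050 in miR-155 KO, from -0.10 to 0.045 and from -0.019 to 0.050 between genotypes in air and smoke, and from -0.026 to 0.12 for the responses. Tnfsf9 ran from -0.33 to 0.82 between genotypes in air. Of all genes, 1220 were called with smoke in miR-155 KO without the 3 libraries, against 2051. Between genotypes in air 55 were called, 24 in the fit of the compared groups, 24 without the 3 libraries, and 29 (without Ia4), 36 (without Ib2) to 182 (without IIIa5) leaving out 1 mouse. In smoke 209 were called, 105 without a mean trend, 334 in the compared groups, 356 without the 3 libraries, and 88 (without IIb1), 132 (without IIb2), 138 (without IVa5 or IVb2) to 374 (without IIa5). Median centring moved the split in smoke from 118 higher and 91 lower to 197 and 69, whereas it turned to 141 and 153 with log2(CPM + 1), 147 and 187 in the compared groups, 132 and 157 with voom weights and 177 and 179 without the 3 libraries. For the responses 3 were called without a trend, 2 with a robust prior, 2 with the filter, 4 with log2(CPM + 1), 3 with quantile normalization, 2 with median centring, and, leaving out 1 mouse, 0 to 42 (without IIa5), with 19 without IIIa5 and 10 without IIIb1. The cause of these differences was not tested. Depth limits Tnfsf8 and Tnfsf9, since 3 reads equal 0.251 to 0.436 CPM in a library.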
